A study of Mus musculus with 10 samples.

Results

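The complement genes described here are 9 components and regulators, chosen by symbol from the 19999 genes of the count table, and all 9 had a row. Complement is a cascade of plasma and tissue proteins. C1q, a complex of 3 kinds of chain encoded by C1qa, C1qb and C1qc, binds targets and starts the classical pathway, C4b encodes the C4 component that this pathway cleaves next, C3 is the component on which all pathways meet, and Cfb encodes factor B, the protease of the alternative pathway's amplification loop. Serping1 encodes the C1 inhibitor, which blocks the proteases bound to C1q, while Cd46 and Cd59a encode membrane regulators: CD46 is a cofactor for inactivating C3b and C4b, and CD59 blocks assembly of the membrane attack complex. In retina C1q is known as a product of microglia, and complement is studied there for its part in removing synapses and damaged photoreceptors.

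The RNA was from retinas of Balb/c mice, an albino strain. A light damage group (LD-vehicle-1 to LD-vehicle-5) and a control group (CTRL-vehicle-1 to CTRL-vehicle-5) had 5 libraries each. The word vehicle in the library names of both groups is not explained in the labels. The labels give neither the intensity and duration of the light nor the time of sampling, age or sex, and the compound A74 named in the design text is not analysed here. Whether each library is a different animal is not stated. The p-values therefore measure only how these libraries vary, which may be technical.

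Light damage libraries held between 17900227 and 20337329 counts and controls between 14652535 and 20699236. Gnat1, which encodes the alpha subunit of rod transducin, stood at 11715 to 21672 CPM over the 10 libraries (CPM is the count in parts per 1000000 of the library's total after TMM scaling). Light damage replicates 1 and 2 stood apart. They had 17174 and 20414 counts of Xist, against at most 9 in the other 8 libraries. Xist is made from the inactive X chromosome of females. No control held it at that level, so the groups were not balanced in this mark of sex. Summed lens marker levels were 7520 and 4015 CPM in this pair. They were 118, 89.6 and 21.4 CPM in light damage replicates 3, 4 and 5, and 3.28 to 31.4 CPM in controls. Summed markers of ciliary body and iris were 305 and 280 CPM in the pair. They were 239, 209 and 205 CPM in light damage replicates 3, 4 and 5, and 189 to 218 CPM in controls. Summed markers of fibroblasts and sclera were 98.9 and 80.1 CPM in the pair. They were 33.7, 34.5 and 29.6 CPM in light damage replicates 3, 4 and 5, and 24.9 to 59.9 CPM in controls. The highest level of 5 complement genes was in light damage replicate 3. It is not one of that pair, but its lens sum was the highest of the other 8 libraries. Values without replicates 1 and 2 are given where they change a result. In whole retina, fewer cells of a type and less RNA per cell cannot be told apart.

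Promoter sequence is shown for C1qb and C1qc, which neighbour each other on chromosome 4 and whose levels moved together across the libraries, for C3, the central component, and for Cd46, the gene that passed the test. RefSeq sequences on build GRCm38.p6 held promoters for 5 of the 9 genes. Each line gives the 250 bases before the annotated start, 5′ to 3′ on the minus strand on which all 4 genes lie, and capitals mark matches to the ETS core GGAAGT on either strand. The regions are chr4:136886201-136886450 for C1qb, chr4:136892915-136893164 for C1qc, chr17:57228137-57228386 for C3 and chr1:195092249-195092498 for Cd46.
C1qb: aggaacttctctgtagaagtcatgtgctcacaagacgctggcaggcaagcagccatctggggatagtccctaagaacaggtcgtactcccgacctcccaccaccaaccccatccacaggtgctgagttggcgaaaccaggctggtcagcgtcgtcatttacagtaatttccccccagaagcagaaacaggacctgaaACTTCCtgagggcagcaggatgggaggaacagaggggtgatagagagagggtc
C1qc: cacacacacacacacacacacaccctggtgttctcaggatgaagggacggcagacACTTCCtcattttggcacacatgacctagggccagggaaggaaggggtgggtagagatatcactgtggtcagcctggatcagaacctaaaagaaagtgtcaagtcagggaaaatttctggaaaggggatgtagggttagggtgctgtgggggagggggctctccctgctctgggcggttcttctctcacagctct
C3: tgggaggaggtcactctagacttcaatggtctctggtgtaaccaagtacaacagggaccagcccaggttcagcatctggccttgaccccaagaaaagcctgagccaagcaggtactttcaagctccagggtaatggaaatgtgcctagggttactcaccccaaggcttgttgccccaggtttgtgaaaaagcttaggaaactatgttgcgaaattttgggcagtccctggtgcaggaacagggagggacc
Cd46: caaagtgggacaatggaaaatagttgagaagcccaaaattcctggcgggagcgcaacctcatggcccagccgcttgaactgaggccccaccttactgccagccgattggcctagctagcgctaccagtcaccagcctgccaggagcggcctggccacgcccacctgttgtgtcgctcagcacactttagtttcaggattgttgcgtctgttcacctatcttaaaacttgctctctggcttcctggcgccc
GGAAGT, the core bound by ETS factors such as the myeloid factor PU.1, lay at -53 in C1qb and at -195 in C1qc, counted from the annotated start. It was in neither the C3 nor the Cd46 window, nor in that of Cd59a. Of 32851 RefSeq promoters of 300 bases (250 before and 50 after the start), 23.8% held GGAAGT. The STAT motif TTCNNNGAA (8.30% of promoters) and the C/EBP motif TTGCNNCAA (2.08%), searched on both strands, were in none of the 5 windows, which says only that these letters are not there. The motifs do not overlap one another in these windows.

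Among the 9 genes, edgeR called Cd46 lower in light damage and called none higher, which does not show that none rose. Of the 9, 8 had enough counts to be tested. Positive log2 fold changes, between 0.65 and 0.93, were found for 6 of those 8, against 50.3% of all genes tested, and none passed. These 6 genes were C1qa, C1qb, C1qc, C4b, C3 and Serping1. Light damage replicates 2 and 3 exceeded every control library in all 6, whereas replicate 4 exceeded every control in 0 and replicate 5 in 1. The 6 were picked for a positive fold change in these same libraries, so this standing is description only. The same standing was not computed for all genes. Over the whole table edgeR's quasi-likelihood test, from which every adjusted p below comes unless another tool is named, called 13.2% of 16852 genes at a Benjamini-Hochberg adjusted p under 0.05, 5.32% as higher and 7.85% as lower. In 4.31% of all genes every light damage library was above every control, which none of the 8 showed. So 1 of 8 lower and 0 of 8 higher is near that background. At an unadjusted p under 0.05, 2 of the 8 passed, C1qa and Cd46, against 30.3% of all genes. DESeq2 called C1qa and Cd46, where it called 17.3% of all genes. The median log2 fold change of the 8 was 0.67, against 0.00 over all genes tested.

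**Figure D1:**
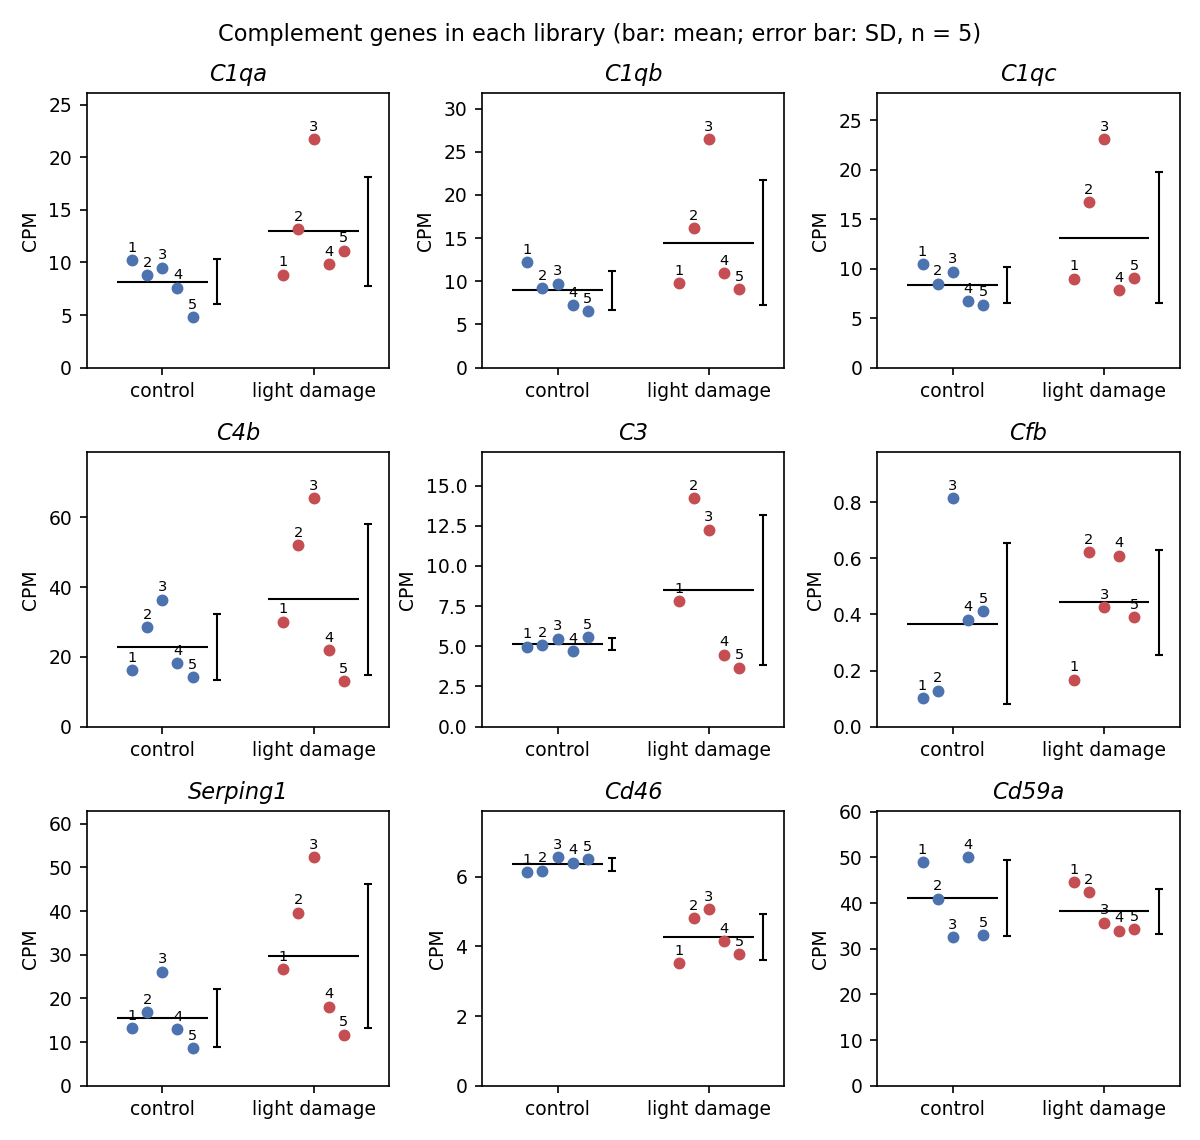
CPM (TMM scaled, linear axis from 0) of the 9 complement genes in each control (blue) and light damage (red) library, with replicate numbers beside the points. Horizontal bars are means and error bars SD over 5 libraries. Cd46 is the gene whose groups are apart, at 3.52 to 5.06 against 6.13 to 6.56 CPM, and light damage replicates 2 and 3 are the high points of the C1q genes, C4b, C3 and Serping1.

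C1qa (ENSMUSG00000036887) encodes the A chain of C1q. In light damage replicates 1 to 5 it stood at 8.84, 13.2, 21.7, 9.86 and 11.1 CPM, and in control replicates 1 to 5 at 10.2, 8.81, 9.49, 7.61 and 4.80 CPM. Light damage replicates 2, 3 and 5 lay above every control and replicates 1 and 4 lay within the control range. The group means were 12.9 ± 5.17 and 8.18 ± 2.12 CPM (SD, n = 5 each), and the log2 fold change was 0.66 with a 95% interval of 0.05 to 1.27 (SE 0.27, edgeR adjusted p = 0.138). DESeq2 placed it past the threshold (adjusted p = 0.0323), and the exact two-sided permutation test of log2 CPM gave an unadjusted p of 0.0476.

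C1qb (ENSMUSG00000036905) and C1qc (ENSMUSG00000036896), the B and C chains, are joined to the A chain in every C1q molecule. C1qb stood at 9.79, 16.2, 26.5, 10.9 and 9.07 CPM in light damage replicates 1 to 5 and at 12.2, 9.20, 9.71, 7.23 and 6.51 CPM in the controls. C1qc stood at 9.0, 16.7, 23.1, 7.86 and 9.07 CPM in light damage and at 10.5, 8.49, 9.71, 6.72 and 6.37 CPM in the controls. For both genes light damage replicates 2 and 3 were above all controls and the other 3 were inside the control range. The log2 fold change of C1qb was 0.69, with a 95% interval of -0.06 to 1.43 (SE 0.33, edgeR adjusted p = 0.195). That of C1qc was 0.65, with a 95% interval of -0.08 to 1.39 (SE 0.33, edgeR adjusted p = 0.213). Without light damage replicate 3 these values were 0.35 for each gene, and that of C1qa 0.39. The highest values from leaving out a library were 0.83 for C1qb, 0.79 for C1qc and 0.77 for C1qa. The 3 chains kept a similar balance in every library, with C1qa at 28.6% to 38.0% of C1q counts in light damage and 27.1% to 35.3% in control.

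C4b (ENSMUSG00000073418) carries the second step of the classical pathway. It stood at 30.1, 52.0, 65.5, 21.9 and 13.1 CPM in light damage replicates 1 to 5, and at 16.2, 28.6, 36.5, 18.3 and 14.2 CPM in controls. Light damage replicates 2 and 3 were above all controls, and replicate 5 was below all of them. The means were 36.5 ± 21.7 and 22.7 ± 9.45 CPM (SD, n = 5 each), and the log2 fold change was 0.69 with a 95% interval of -0.41 to 1.79 (SE 0.48, edgeR adjusted p = 0.373). Without light damage replicate 3 its log2 fold change was 0.37, and without control replicate 3 it was 0.93.

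C4b has a close paralog, C4a, between which reads can be split. C4a stood at 1.45, 1.29, 1.14, 2.05 and 2.11 CPM in light damage and at 1.56, 2.44, 5.42, 2.85 and 3.15 CPM in controls, and edgeR called it lower, with a log2 fold change of -0.94 (SE 0.29) and an adjusted p of 0.0451. It held 1.70% to 13.9% of the counts of the C4 genes in light damage and 7.88% to 18.2% in control. Removing any 1 of light damage replicates 1 to 4 or control replicates 2 to 5 ended this call, and without control replicate 3 the value was -0.63 (edgeR adjusted p = 0.129). The sum of C4a and C4b had a light damage mean of 38.1 ± 21.3 CPM and a control mean of 25.8 ± 10.5 CPM (SD over 5 libraries).

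C3 (ENSMUSG00000024164) showed the widest contrast between the spreads of the groups. It stood at 7.83, 14.2, 12.3, 4.49 and 3.67 CPM in light damage and at 4.98, 5.08, 5.48, 4.69 and 5.55 CPM in controls. Light damage replicates 1, 2 and 3 were above every control and replicates 4 and 5 below every control, so no light damage library fell inside the control range. The log2 fold change was 0.72 with a 95% interval of -0.08 to 1.53 (SE 0.36, edgeR adjusted p = 0.204), and an exact two-sided permutation test of log2 CPM gave p = 0.238. On the log2 scale the SD of C3 was 0.85 in light damage and 0.10 in control, where the median gene had 0.13 and 0.17. With a mean of 86.8 counts per control library, counting error alone gives an expected SD of 0.15, above the SD seen in control. An SD over 5 libraries is imprecise, and the prior count of 2 added for log2 CPM lowers it. The difference was not tested. Without light damage replicate 5 the log2 fold change was 0.92 and C3 passed the threshold (edgeR adjusted p = 0.0483). Without replicate 2 the value was 0.46 (edgeR adjusted p = 0.358), and without replicates 1 and 2 it was 0.41 (edgeR adjusted p = 0.529).

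Cfb (ENSMUSG00000090231) was at the limit of what this depth can measure. It had 3, 12, 9, 11 and 7 counts in light damage replicates 1 to 5 and 2, 2, 15, 6 and 6 counts in controls. All 5 light damage libraries lay inside the control range in CPM, and the gene was not tested because of its low counts.

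Serping1 (ENSMUSG00000023224), the C1 inhibitor gene, had the largest positive fold change of the 8 tested. It stood at 26.6, 39.6, 52.3, 18.1 and 11.7 CPM in light damage and at 13.1, 16.8, 26.1, 12.9 and 8.63 CPM in controls. Light damage replicates 1, 2 and 3 were above every control and replicates 4 and 5 were inside the control range. The means were 29.7 ± 16.4 and 15.5 ± 6.58 CPM (SD, n = 5 each), and the log2 fold change was 0.93 with a 95% interval of -0.12 to 1.98 (SE 0.46, edgeR adjusted p = 0.21). Without light damage replicate 3 the log2 fold change was 0.63 (edgeR adjusted p = 0.411), and without control replicate 3 it was 1.21 (edgeR adjusted p = 0.154). Serping1 and C4b were high and low in the same libraries: the CPM of C4b was 1.12 to 1.31 times that of Serping1 in light damage and 1.24 to 1.70 times in control.

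Cd46 (ENSMUSG00000016493) was the gene that edgeR called. It stood at 3.52, 4.81, 5.06, 4.15 and 3.78 CPM in light damage replicates 1 to 5 and at 6.13, 6.17, 6.56, 6.41 and 6.51 CPM in control replicates 1 to 5. Every light damage library was below every control, an arrangement that 5.48% of all tested genes showed. The means were 4.27 ± 0.657 and 6.36 ± 0.195 CPM (SD, n = 5 each), and the log2 fold change was -0.57 with a 95% interval of -0.85 to -0.29 (SE 0.13, edgeR adjusted p = 0.0114). The exact two-sided permutation test of log2 CPM gave p = 0.00794, the smallest that 5 against 5 libraries can give. Leaving out any 1 of the 10 libraries kept the call, with an edgeR adjusted p between 0.0127 and 0.0357. The lowest of these was without control replicate 1, where 17.6% of all genes were called. Without light damage replicates 1 and 2 together the log2 fold change was -0.55 and the edgeR adjusted p 0.0727, where 2.34% of genes were called. Between 63 and 122 reads were counted for Cd46 in a library. The SD of its log2 CPM in controls was 0.04, against an expected 0.14 from counting error alone. As for C3, an SD over 5 libraries is imprecise and the prior count lowers it, and the difference was not tested. In mice Cd46 is known chiefly from testis, and the related membrane regulator Crry (Cr1l), its neighbour on chromosome 1 in RefSeq order, is the broadly expressed one.

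Cd59a (ENSMUSG00000032679), the other membrane regulator, stood at 44.6, 42.4, 35.7, 34.0 and 34.3 CPM in light damage and at 48.9, 41.0, 32.5, 50.0 and 33.0 CPM in controls. All 5 light damage libraries lay inside the control range. The log2 fold change was -0.11 with a 95% interval of -0.40 to 0.19 (SE 0.13, edgeR adjusted p = 0.634). Cd59a lies beside its paralog Cd59b on chromosome 2 in RefSeq order, and how reads shared by the pair were divided is not given.

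**Figure D2:**
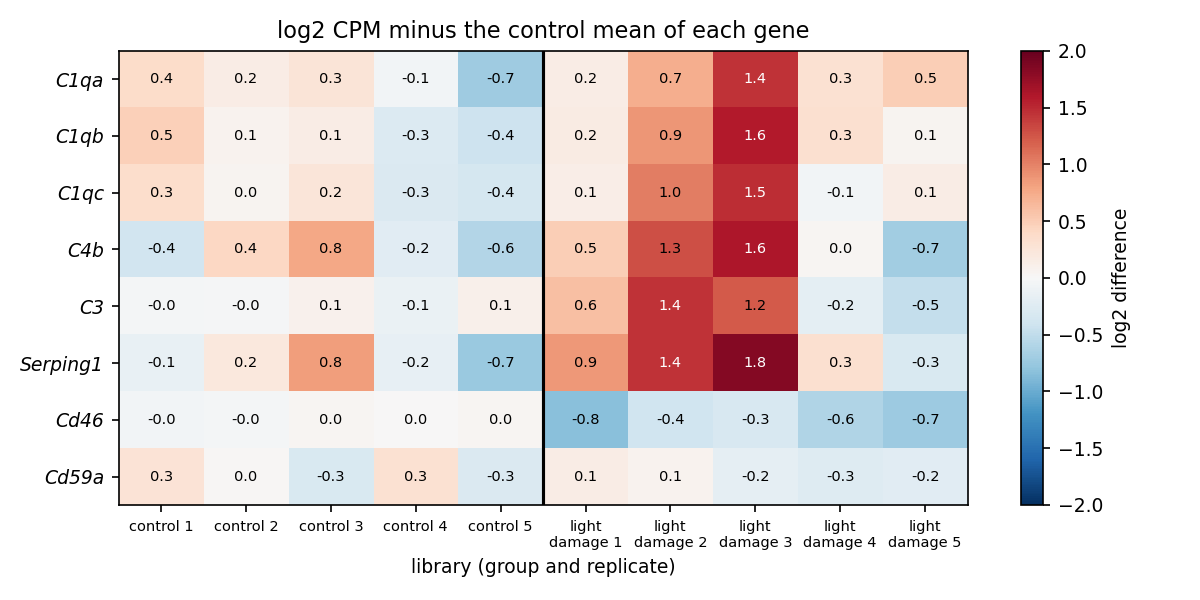
log2 CPM of the 8 tested complement genes in each library (columns), minus that gene's mean over the controls, from blue (lower) to red (higher). Light damage replicate 3 reaches 1.84 for Serping1 and 1.58 for C1qb, light damage replicate 5 is at -0.70 for C4b and -0.47 for C3, and Cd46 lies between -0.83 and -0.32 in the light damage libraries.

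The levels of the genes can be compared with one another only per length. In control retina Cd59a had the highest level, 22.8 ± 4.64 CPM per kilobase of its longest annotated transcript (SD, n = 5). Serping1 (8.77 ± 3.72), C1qb (8.25 ± 2.07), C1qa (7.87 ± 2.04) and C1qc (6.94 ± 1.49 CPM per kilobase) came next, and each differed from its neighbour in this order by less than their SDs. C4b had 4.23 ± 1.76, Cd46 1.01 ± 0.0309, C3 1.00 ± 0.0696 and Cfb 0.133 ± 0.104 CPM per kilobase, and Cd46 and C3 did not differ beyond their spread. In light damage the first 6 places held the same genes in the same order, with Cd59a at 21.2 ± 2.74, Serping1 at 16.8 ± 9.29 and C1qb at 13.3 ± 6.66 CPM per kilobase. C3, at 1.65 ± 0.906, then stood before Cd46, at 0.679 ± 0.104 CPM per kilobase. With the median annotated transcript length, which for C4b, C3 and Cd46 is far shorter than the longest, their control levels became 29.8, 8.48 and 5.03 CPM per kilobase, and C4b then stood first.

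The other complement genes were taken from lists of 54 genes, of which 34 had a row and 27 were tested. By edgeR 2 rose, 2 fell and 23 did not pass, shares near the background of 5.32% higher and 7.85% lower. Colec12, a collectin and scavenger receptor, rose. It was listed with classical and lectin initiation, which does not say that it starts either pathway here. It stood at 6.10, 6.10, 2.93, 1.83 and 1.78 CPM in light damage replicates 1 to 5 against 1.03 to 1.41 CPM in controls. Its highest levels were in the libraries high in lens markers. Its log2 fold change was 1.63 (SE 0.37, edgeR adjusted p = 0.0144). Clu, clusterin, a secreted chaperone that also restrains the membrane attack complex, rose to 1269 ± 269 from 802 ± 127 CPM (SD, n = 5 each; log2 fold change 0.66, SE 0.15, edgeR adjusted p = 0.0182), and 4 of 5 light damage libraries were above every control. Markers of Müller glia, 4 of 12 called higher against 5.32% of all genes, summed to 4656 to 6735 CPM in light damage and 3340 to 5101 CPM in controls, and their part in the Clu level was not tested. Cfp, properdin, which stabilises the alternative pathway convertase, fell (log2 fold change -0.41, SE 0.10, edgeR adjusted p = 0.0191). It stood at 13, 15.9, 16.2, 17.8 and 18.9 CPM in light damage and at 17.8 to 25.1 CPM in controls, and its call was lost without light damage replicate 1 (edgeR adjusted p = 0.0548). C4a was the other gene that fell. Without light damage replicates 1 and 2 none of these 4 genes was called, with log2 fold changes of 0.85, 0.56, -0.30 and -0.81 for Colec12, Clu, Cfp and C4a.

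Of the 7 tested genes of classical and lectin initiation, 1 rose, 1 fell and 5 did not pass. Masp2, a lectin pathway protease, had a log2 fold change of -0.85 (adjusted p = 0.107 by edgeR) at 0.589 ± 0.295 against 1.06 ± 0.375 CPM (SD, n = 5 each). Of the 4 tested fluid phase regulators 1 rose and 3 did not pass, among them factor I (Cfi, log2 fold change 0.22). None of the 7 tested membrane regulators passed by edgeR, 2 of them having an unadjusted p under 0.05, where 30.3% of all genes did. These were Cr1l, at 8.59 ± 1.57 against 6.83 ± 0.376 CPM (SD, n = 5 each; log2 fold change 0.33, adjusted p = 0.0908 by edgeR), and Csmd2, at 22.1 ± 2.57 against 28.5 ± 6.11 CPM (log2 fold change -0.36, adjusted p = 0.0883 by edgeR), and Csmd3 had a log2 fold change of -0.22. None of the 7 tested receptors and C1q-binding proteins passed either, 2 having an unadjusted p under 0.05, again near the 30.3% of all genes, calreticulin (Calr, log2 fold change 0.16) and C1qbp (0.18), and Cd93 stood at -0.38. C8g, the 1 tested gene of the terminal pathway, had a log2 fold change of -0.42 (adjusted p = 0.0813 by edgeR).

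**Figure D3:**
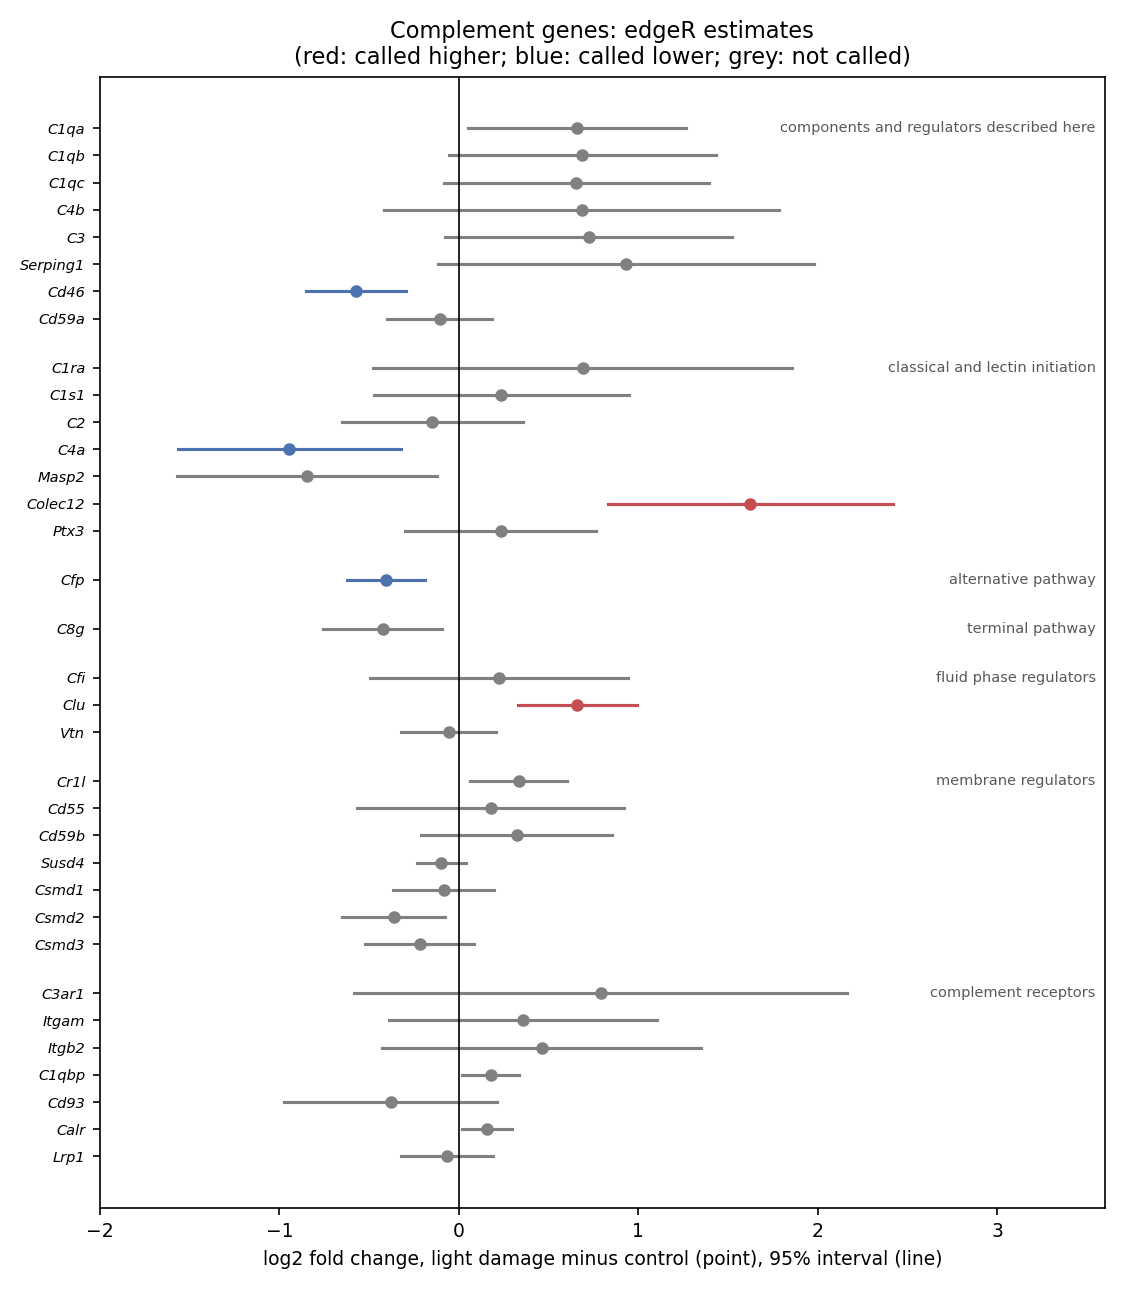
edgeR log2 fold changes (points) with 95% intervals (lines), light damage minus control, for the 8 tested genes described here and for other complement genes by role. Coloured genes passed the adjusted threshold: Colec12 and Clu to the right of 0, Cd46, C4a and Cfp to the left, and the intervals of C4b and Serping1 are among the widest.

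Microglia are the known source of C1q in retina, and the levels of their markers are given beside it. All 19 markers were tested, and 1 was called higher, where 5.32% of all genes were (Csf1r, the receptor for colony stimulating factor 1, log2 fold change 0.71, SE 0.15). An unadjusted p under 0.05 was found for 11 of the 19, against 30.3% of all genes, and the median log2 fold change was 0.54 against 0.00 over all genes. Their summed level was 148, 200, 219, 116 and 111 CPM in light damage replicates 1 to 5 and 93.0 to 113 CPM in controls. The summed C1q chains stood at 27.6, 46.1, 71.3, 28.6 and 29.3 CPM in the same light damage libraries and at 17.7 to 32.9 CPM in controls. Divided by the microglial sum, C1q came to 0.25 ± 0.0505 in light damage and 0.241 ± 0.0442 in control (SD, n = 5 each), a difference smaller than either SD. The ratio was not steady across libraries. It was 0.325 in light damage replicate 3, above every control, and 0.186 in light damage replicate 1, below every control, where controls spanned 0.190 to 0.290. Light damage replicate 1, with the highest lens sum, had a microglial sum above every control and a C1q sum inside the control range. Markers of monocytes and macrophages, 3 of 10 tested and none called, summed to 17.7, 29.6, 43.9, 7.26 and 9.74 CPM in light damage and 6.43 to 14.6 CPM in controls, led by Lyz2 and with Ccr2, a monocyte receptor, at 0 to 0.71 CPM. The part of either cell type in the C1q levels was not tested.

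Markers of reactive glia overlapped between the groups. Of 11 such markers 10 were tested and none was called by edgeR, where 13.2% of all genes were. An unadjusted p under 0.05 was found for 0, against 30.3% of all genes. Their sums were 305, 479, 510, 276 and 238 CPM in light damage replicates 1 to 5 and 228, 352, 655, 195 and 198 CPM in control replicates 1 to 5, so 1 control exceeded every light damage library. Control replicate 3, the highest of all 10 in this sum, was also the highest control for C4b and Serping1, at 36.5 and 26.1 CPM. Gfap, the intermediate filament of reactive Müller glia and astrocytes, stood at 162 CPM there and at 48.8 to 132 CPM in light damage. The sum of pigment epithelium markers, 0 of 9 called against 13.2% of all genes, was 239, 140, 88.5, 133 and 87.0 CPM in light damage replicates 1 to 5. It was 32.9 to 119 CPM in controls, so light damage replicates 3 and 5 lay inside the control range. The part of these cells and of gliosis in the levels of C4b, C3 and Serping1 was not tested.

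**Figure D4:**
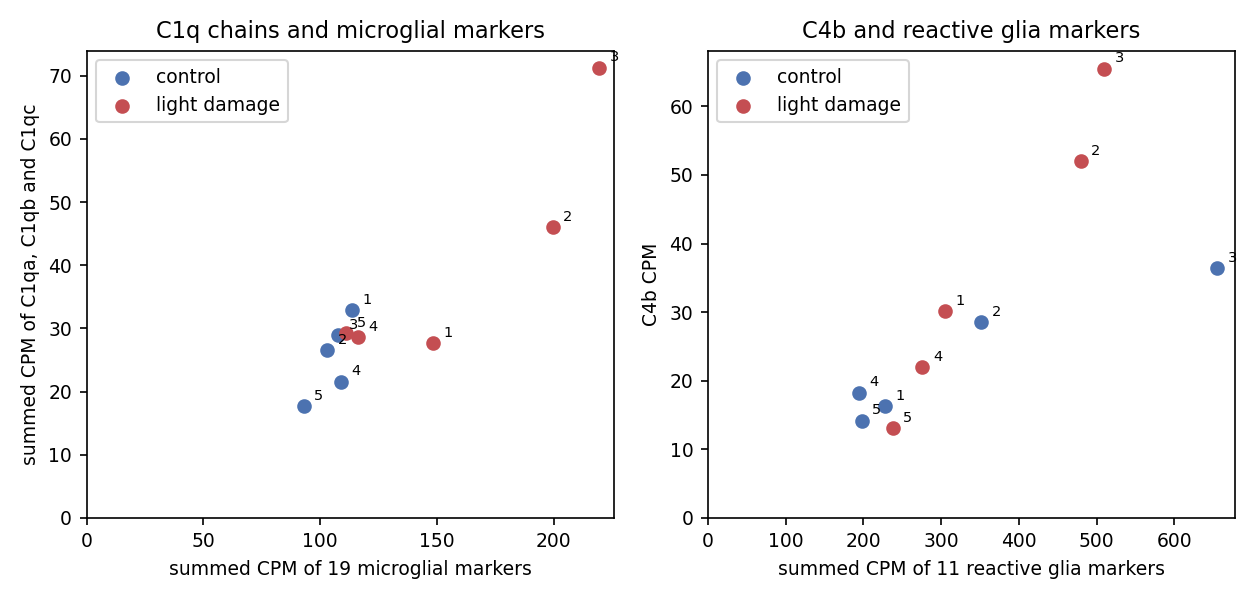
Left, the summed CPM of C1qa, C1qb and C1qc against the summed CPM of 19 microglial markers; right, C4b CPM against the summed CPM of 11 reactive glia markers; each point is a library with its replicate number, control in blue and light damage in red. Light damage replicates 2 and 3 are at the upper right on the left side, at 46.1 and 71.3 CPM of C1q, and control replicate 3 is at the far right of the other side, at 655 CPM of reactive glia markers.

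For C1qa, C3, C4b and Serping1, the genes with the most similar pattern were named by Pearson correlation of log2 CPM over the 10 libraries, among the 15538 genes whose mean reached 1 CPM. These values describe libraries that share their RNA and depth, and they came from ranking all genes. Closest to C1qa were C1qb (r = 0.93, Spearman's coefficient 0.81), the C3a receptor gene C3ar1 (r = 0.93, Spearman's 0.71) and the interferon-induced gene Ifi27 (r = 0.92, Spearman's 0.75). Without the 2 libraries farthest from the median of C1qa, r was 0.85, 0.55 and 0.63. Closest to C3 were Gusb, lysosomal beta-glucuronidase (r = 0.98, Spearman's 0.95), Elovl5, a fatty acid elongase (r = 0.96, Spearman's 0.81), and Chil1, a chitinase-like protein (r = 0.94, Spearman's 0.78). Without the 2 libraries farthest from the median of C3, r was 0.88, 0.80 and 0.83.

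C4b and Serping1 were each among the 3 genes closest to the other, and Rassf2 was the closest to both. Closest to C4b were Rassf2 (r = 0.98, Spearman's 0.99), the acute-phase protease inhibitor gene Serpina3n (r = 0.97, Spearman's 0.99) and Serping1 (r = 0.97, Spearman's 0.95). Closest to Serping1 were Rassf2 (r = 0.98, Spearman's 0.96), the interferon-induced gene Ifitm3 (r = 0.97, Spearman's 0.93) and C4b. Without the 2 farthest libraries these values of r lay between 0.91 and 0.96. Serpina3n stood at 35.5, 64.5, 66.0, 18.8 and 12.1 CPM in light damage and at 16.8, 25.3, 53.5, 14.3 and 13.6 CPM in controls, so that light damage replicates 2 and 3 and control replicate 3 were its high libraries too.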

How the data were processed

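Retinal RNA of 10 libraries, 5 light damage and 5 control, was counted per gene. The authors deposited whole-number counts for 19999 genes. Per the submitters' processing notes the tools were RSEM 1.3.1, Bowtie2 and DESeq2 1.4.5, with build GRCm39, and the step of each is not stated. Rounding of RSEM estimates, the division of shared reads and the use of strand are not given in the sources used here. Gene symbols were looked up in GENCODE M21 (19892 identifiers matched). Promoter windows are RefSeq's on GRCm38.p6 and were joined by symbol, never by coordinate.

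Group comparison of the counts used edgeR 4.0.16 (R 4.3.3). Genes were kept by filterByExpr (16852), totals scaled by TMM, and groups compared by the robust quasi-likelihood test with Benjamini-Hochberg adjustment over all genes tested. Intervals use that test's degrees of freedom. log2 CPM used a prior count of 2. DESeq2 1.42.0, limma-voom 3.58.1, other scalings and filters, a replicate block, and fits without libraries were alternatives. The steps were tested on simulated data. No pair of libraries agreed within sampling noise.

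The genes and lists were chosen with earlier results of these data known. Named beside the 9 genes are the called genes of each complement list, else its 3 lowest p, and the 3 genes most similar to each of 4 of them. Gfap, Ccr2 and Xist are named outside this rule, after their values were seen, and from marker lists Csf1r, Lyz2 and Gnat1 are named. Some genes that the rule would name are not reported here.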

Additional observations from a re-analysis of the deposited data

How the results depend on the processing

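The log2 fold changes of the 8 tested genes kept their sign in each of the alternative fits. Cd46 kept its call except without light damage replicates 1 and 2 together. C1qb, C1qc and Cd59a stayed uncalled throughout. The count of complement genes called higher was 0, but 1 with DESeq2, 2 with the replicate block, and 0 to 1 when leaving out a library; those called lower were 1, but 0 without light damage replicates 1 and 2. The cause was not tested. Whether the replicate numbers pair the libraries was not settled. Deviations of same-numbered libraries correlated at 0.05 to 0.07 for 4 numbers and 0.32 for replicate 3. Of the 5 light damage libraries, 2 correlated best with their own number. A weak correlation over all genes does not exclude a pairing that shows in some of them. With the replicate block, 19.5% of all genes were called, against 13.2% without it, and 1431 genes were higher. Among the genes described here C4b (adjusted p = 0.05) and Serping1 (edgeR adjusted p = 0.000293) were then called higher. The SE of Serping1 was 0.110 with the block and 0.457 without it, and that of C4b 0.162 and 0.479. That of Cd46 was 0.140 with the block and 0.132 without it. Over the whole table, leaving out a library gave 399 to 1347 genes higher and 723 to 1644 lower, and removing light damage replicates 1 and 2 gave 135 and 268. Leaving out replicate 3 of both groups, chosen after seeing the data, gave 280 and 523. Of the other complement genes, leaving out a library gave 2 to 3 higher and 0 to 3 lower. Both counts were 0 without light damage replicates 1 and 2, and they were 1 and 0 without replicate 3 of both groups. Limma-voom, library totals alone and a dispersion that was not robust each gave 1 lower. With library totals alone 1147 genes were higher and 912 lower, against 896 and 1323. The lowest counts, 2 to 15 for Cfb, limit what can be seen of that gene.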
